A study of Rattus norvegicus with 14 samples.

Results

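The genes described here are 9 that store, release, buffer and take back calcium in muscle fibres: Atp2a1, Atp2a2, Casq1, Casq2, Pln, Sln, Pvalb, Ryr1 and Cacna1s. They were taken by name, as every probe set that GEO's platform annotation gives 1 gene symbol from these 9. The rule found 16 probe sets, of 20826 with a single symbol, and 9 genes of 14217. Atp2a2 had 5 probe sets, Pln had 3, Casq2 had 2 and each other gene had 1. Signals came from 14 Affymetrix arrays of whole soleus, a slow postural calf muscle, from 12 male Sprague Dawley rats. Tenotomy, the cutting of a muscle's tendon, had unloaded the muscle for a set number of weeks. The 6 arrays labelled short-term immobilized were of 1 week (rats 12 and 13), 2 weeks (rats 25 and 27), 3 weeks (rat 32) and 4 weeks (rat 42). The 4 long-term arrays were of 6 weeks (rats 61 and 62), 16 and 22 weeks (1 rat each). The 4 control arrays are named control 1 (rat 62), control 2, control 3 and control 4 (rat 61), and controls 2 and 3 came from other rats. Rats 61 and 62 therefore gave both a control and a 6-week muscle, and no untouched animal is labelled as such. All controls carry the mark L in their titles and all tenotomized muscles the mark R, so side and tenotomy cannot be told apart. The short-term rats are not among the control rats, so the cohort of rats and short-term tenotomy cannot be told apart either. The labels give no age.

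In a muscle fibre, the voltage sensor in the surface membrane opens the release channel of the sarcoplasmic reticulum, calcium leaves the store and the fibre contracts. Calcium pumps then return it, calsequestrin binds it inside the store, and in fast fibres parvalbumin binds it in the cytosol and speeds relaxation. Several of these proteins come in a form typical of fast fibres (Atp2a1 for the pump, Casq1 for calsequestrin) and a form typical of slow fibres and the heart (Atp2a2, Casq2). Phospholamban (Pln) and sarcolipin (Sln) are small membrane peptides that inhibit the pumps.

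Signals are the deposited values after each array was shifted to a shared scale, and differences are log2 changes with a standard error (SE). A probe set is called higher or lower where its Benjamini-Hochberg adjusted p in limma, over all 20334 probe sets tested, was under 0.05. Of the 16 member probe sets 15 were tested. The other, Pln probe set 1384689_at, lay at the floor of 9.58 on 13 arrays and read 15 on control 3. Levels are compared between arrays for 1 probe set at a time. Differences between isoforms within an array are also compared between arrays, and no relative amount of different genes is read from them. In whole muscle, fewer fibres of a type and less RNA per fibre cannot be told apart.

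The arrays correlated with each other between 0.852 and 0.94. Markers of the tissue were bright on all arrays: the summed signal of 8 general skeletal muscle genes was 45263 to 56934 in control, 48157 to 67557 in short-term and 51602 to 61221 in long-term muscle, and 0 of the 8 were called in short-term against control. Of 9 slow-fibre contractile genes 0 were called either. Of 10 measured fast-fibre contractile genes, 6 were higher and 1 lower in short-term muscle. The controls were unlike each other in this list, with summed signals of 38322, 44691, 20222 and 14545 for controls 1 to 4, against 29765 to 46261 in short-term and 33165 to 37038 in long-term muscle. Of 6 fibroblast markers 5 were higher in short-term muscle, with a summed signal of 22888 to 41569 against 7980 to 11047 in control and 3333 to 12605 in long-term muscle. Of 6 macrophage markers 5 were also higher, with 3583 to 7821 against 1198 to 2307 in control and 1157 to 2334 in long-term muscle. The part of these other cells in the results for the calcium genes was not tested. Of 6 smooth muscle markers 1 was higher, with 1518 to 4581 against 1654 to 2110 in control. Of 6 heart markers Nppa, Nppb and Myl7 were below the filter on low signals, 2 were higher and 1 lower, with a summed signal of 398 to 1368 against 270 to 370. All 4 neuronal markers were below the filter.

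Sln rose in short-term muscle. Casq2, Cacna1s, 1 probe set of Pln and 1 of Atp2a2 fell. Pvalb rose from a very low signal. Casq1, Ryr1, Atp2a1 and the brightest Atp2a2 probe set were not called. In numbers, 2 of 15 member probe sets were higher and 5 lower in short-term muscle than in control, or 46.7%, where 36.4% of all probe sets tested were called, 18.9% higher and 17.5% lower. The median change was -0.06 over the members and 0 over all probe sets. The share called among these few probe sets is close to that of the array, so single genes carry the description. In long-term muscle 0 of 15 were called against control, where 0% of all probe sets were. At an unadjusted p under 0.05 in limma, Sln was the 1 member that passed, and 474 of all probe sets did, or 2.33%. Between long-term and short-term muscle 4 members were higher and 1 lower, or 33.3%, beside 34.2% of all probe sets, 16.4% higher and 17.8% lower. Groups did not overlap for 3 of 15 members between short-term muscle and control, beside 24.2% of all probe sets, for 0 between long-term muscle and control, beside 2.15%, and for 3 between long-term and short-term muscle, beside 21.9%. These comparisons share arrays, so a gene that fell in short-term muscle and then read higher in long-term muscle gives no independent second observation.

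**Figure D1:**
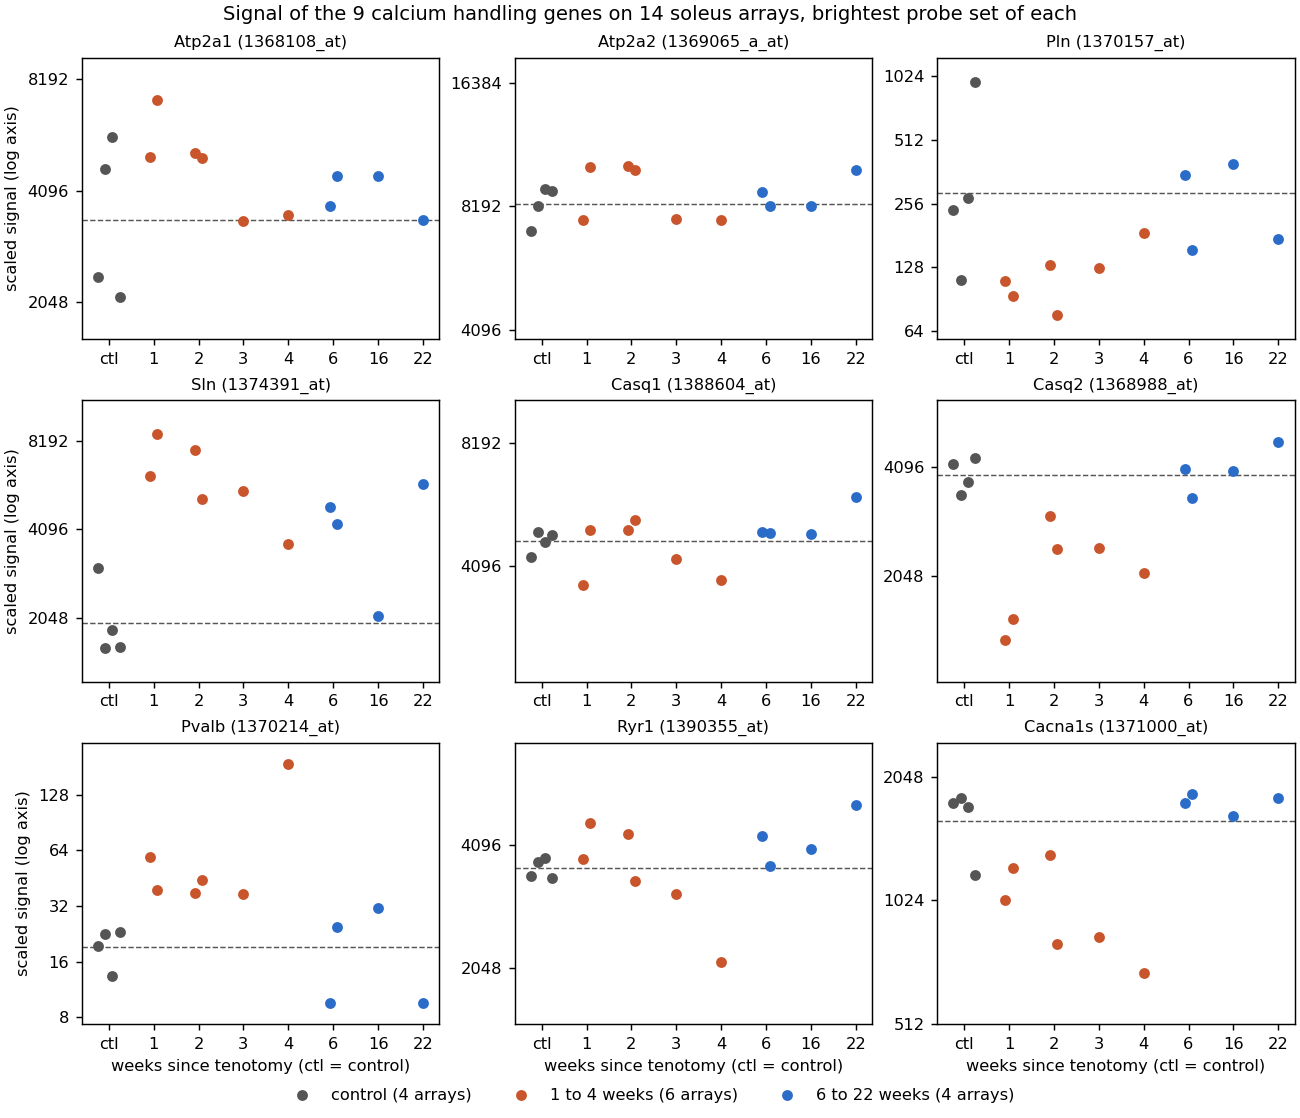
Scaled signal (log axis) of the brightest probe set of each of the 9 genes on all 14 arrays, by group and week, with the geometric mean of the 4 controls as a dashed line. All 6 short-term points lie above the highest control for Sln and below the lowest control for Casq2.

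Of the 15 probe sets Sln had the largest change in short-term muscle. Its control signals were 1614, 1865, 1628 and 3034 for controls 1 to 4. Short-term muscle gave 6249 and 8665 at 1 week, 7619 and 5209 at 2 weeks, 5557 at 3 weeks and 3640 at 4 weeks. Long-term muscle gave 4899 and 4266 at 6 weeks, 2079 at 16 weeks and 5861 at 22 weeks. All short-term signals lay above all controls, the 4-week array nearest to them, and the 16-week array lay inside the control range. Short-term muscle was 3.02-fold higher than control (log2 change 1.59, SE 0.28, adjusted p = 0.00064, n = 6 and 4). Long-term muscle was 2.03-fold above control by the means (log2 change 1.02, 95% interval 0.37 to 1.68), which did not pass the adjustment (adjusted p = 1). The difference of long-term from short-term muscle was -0.57 (95% interval -1.17 to 0.03, adjusted p = 0.13).

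Phospholamban is the inhibitor of Atp2a2 in heart and slow muscle. Its brighter probe set, 1370157_at, read 112, 272, 956 and 239 in controls 1 to 4. In short-term muscle it read 111 and 94.1 at 1 week, 131 and 76.4 at 2 weeks, 127 at 3 weeks and 187 at 4 weeks. In long-term muscle it read 350, 155, 392 and 175 in order of weeks. Control 1 lay inside the short-term range and control 3 far above all other arrays. The change in short-term muscle was -1.31 (SE 0.45, adjusted p = 0.033), and without control 3 it was -0.73 (adjusted p = 0.14). The call was also lost without any 1 of the arrays of rats 12, 13 and 27 or control 2, with adjusted p from 0.051 to 0.066. The second probe set, 1388876_at, followed the first over the arrays (r = 0.86, n = 14), but its change was -0.15 (SE 0.29, adjusted p = 0.72). Long-term muscle was 1.09 above short-term muscle in the first probe set (adjusted p = 0.073), and 1.23 with rat as a block (adjusted p = 0.039).

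Casq2, the slow and cardiac calsequestrin, fell in both of its probe sets. The brighter, 1368988_at, read 3412, 3702, 4313 and 4172 in controls 1 to 4. It read 1362 and 1558 at 1 week, 2985 and 2432 at 2 weeks, 2440 at 3 weeks and 2089 at 4 weeks. Long-term muscle gave 4040 and 3357 at 6 weeks, 3977 at 16 weeks and 4790 at 22 weeks. The 1-week arrays were the lowest, all short-term arrays lay below all others, and control and long-term arrays overlapped. The fall was 1.88-fold in short-term muscle (log2 change -0.91, SE 0.19, adjusted p = 0.0019). Long-term muscle was 0.95 above short-term muscle (SE 0.19, adjusted p = 0.0015) and 0.05 from control (SE 0.21). The second probe set, 1387401_at, had a control range of 1606 to 2877, a short-term range of 745 to 1867 and a long-term range of 1743 to 2958. It fell by 1.08 on the log2 scale in short-term muscle (SE 0.26, adjusted p = 0.0047), although the 2-week and 3-week arrays of rats 25 and 32 (1867 and 1724) lay above control 1.

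Casq1, the fast-fibre calsequestrin, was even over the arrays. Control signals were 4972, 4693, 4887 and 4328 for controls 1 to 4. Short-term muscle gave 3701 and 5034 at 1 week, 5015 and 5305 at 2 weeks, 4277 at 3 weeks and 3787 at 4 weeks, and long-term muscle 4980, 4936, 4915 and 6031. The ranges of the 3 groups overlapped, while both 2-week arrays lay above the highest control. The change was -0.08 in short-term muscle (95% interval -0.33 to 0.18, adjusted p = 0.65) and 0.14 in long-term muscle (adjusted p = 1). Under a common median of all probe sets, a scale on which the median tested probe set itself moved by -0.31, the short-term change was -0.39 (adjusted p = 0.036).

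The difference of Casq1 and Casq2 within an array does not depend on the scaling of that array. It was 0.28 ± 0.21 (SD, n = 4) in control, 1.11 ± 0.38 (n = 6) in short-term and 0.37 ± 0.12 (n = 4) in long-term muscle, on the log2 scale. Single arrays ran from 0.75 to 1.69 in short-term muscle, from 0.05 to 0.54 in control and from 0.3 to 0.56 in long-term muscle. The short-term values lay above all others, with the 1-week arrays highest. The balance of signal moved toward Casq1 by 0.83 in short-term muscle against control (exact 2-sided permutation test over arrays, p = 0.0095, adjusted p = 0.043 over 6 tests). It moved back by -0.74 from short-term to long-term muscle (exact p = 0.014, adjusted p = 0.043). When each array was left out in turn, each of these calls was lost in 9 of 14 runs (exact permutation test, adjusted p up to 0.071). With the second Casq2 probe set the differences were 1 and -0.87, each with an adjusted p of 0.13 in the exact permutation test. Values compared are differences between arrays, and no copy number of either gene follows from them.

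**Figure D2:**
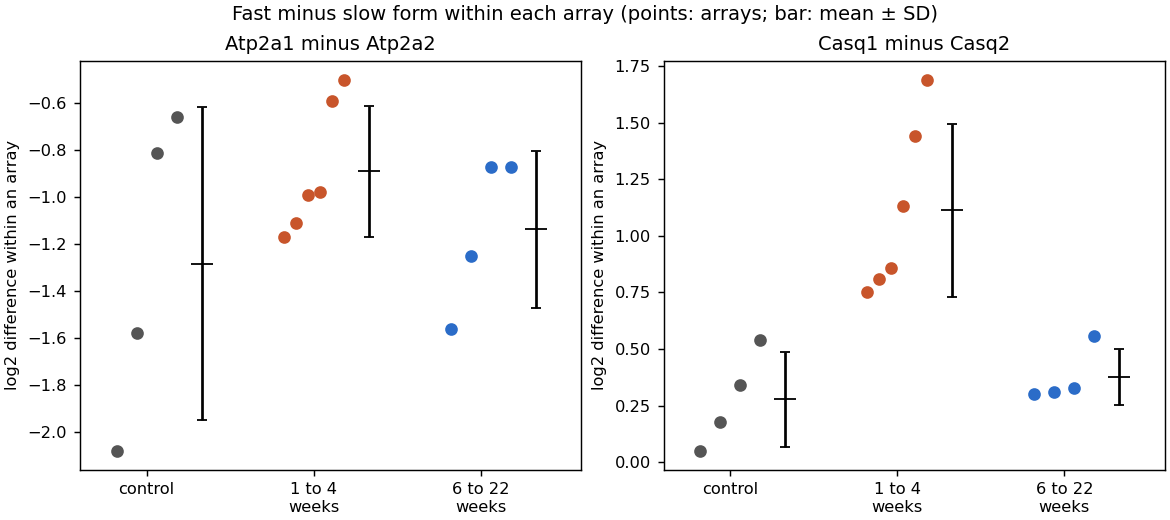
Within-array log2 difference between the fast and the slow isoform (Atp2a1 minus Atp2a2, Casq1 minus Casq2), 1 point per array sorted by value within each group, with bars for the mean ± SD. The Casq1 minus Casq2 points of the 6 short-term arrays (0.75 to 1.69) lie above all points of the other groups, while the Atp2a1 minus Atp2a2 points overlap.

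Atp2a2, the slow and cardiac pump, gave probe sets that did not move alike. The brightest, 1369065_a_at, ran from 7141 to 9030 in control, from 7593 to 10247 in short-term muscle and from 8186 to 10029 in long-term muscle. Its short-term change was 0.08 (95% interval -0.18 to 0.35, adjusted p = 0.63). It read 65.8% to 86.8% of the highest signal on its array, so it sits near the top of the range of the array. The next, 1370426_a_at, read 2412, 2594, 2552 and 1977 in controls 1 to 4, and 1576 to 2171 in short-term muscle. It fell by 0.42 on the log2 scale (SE 0.12, adjusted p = 0.014), and long-term muscle was 0.44 higher than short-term muscle (SE 0.12, adjusted p = 0.011). Under quantile normalization these changes were -0.19 (adjusted p = 0.13) and 0.21 (adjusted p = 0.12).

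Probe set 1398862_at of Atp2a2 read 301, 296 and 283 in controls 1, 3 and 4 and 930 in control 2. Short-term muscle gave 750 and 1329 at 1 week, 1361 and 659 at 2 weeks, 354 at 3 weeks and 685 at 4 weeks, so control 2 lay inside the short-term range. The change was 0.99 (SE 0.39, adjusted p = 0.056), and 1.4 without control 2 (adjusted p = 0.0081). Probe set 1391771_at was also highest in control 2, with 86.8 against 24.9 to 53.7 for the other controls and 42.3 to 151 in short-term muscle, and a change of 0.86 (adjusted p = 0.1). The 2 correlated with each other (r = 0.86, n = 14), while 1370426_a_at correlated with them at -0.23 and -0.31. The faintest, 1375164_at, changed by 0.04 (adjusted p = 0.95). No single statement on the level of Atp2a2 covers its probe sets.

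Atp2a1, the fast-fibre pump, read 4688, 5722, 2109 and 2393 in controls 1 to 4. In short-term muscle it read 5055 and 7194 at 1 week, 5192 and 5028 at 2 weeks, 3388 at 3 weeks and 3527 at 4 weeks. Long-term muscle gave 3729 and 4496 at 6 weeks, 4482 at 16 weeks and 3409 at 22 weeks. Controls 3 and 4 were the lowest of all arrays, and controls 1 and 2 lay among the short-term arrays. Controls 1 and 2 were also above controls 3 and 4 in the summed fast-fibre contractile signal. Not each gene of that list followed: Tnnt3, the fast troponin T, read 4778, 5584, 395 and 149 in controls 1 to 4, while Myh1, a fast myosin heavy chain, read 5848, 6539, 7043 and 5104. The short-term change of Atp2a1 was 0.47 (95% interval -0.09 to 1.04, adjusted p = 0.17), and 0.72 without control 2 (adjusted p = 0.043). The difference of Atp2a1 and Atp2a2 within an array was -1.28 ± 0.67 (SD, n = 4) in control, -0.89 ± 0.28 (n = 6) in short-term and -1.14 ± 0.33 (n = 4) in long-term muscle. Short-term and control arrays differed by 0.39 (exact 2-sided permutation test, p = 0.25, adjusted p = 0.37). With the other probe sets of Atp2a2 this difference ran from -0.51 to 0.89, so its direction depends on the probe set, and in the exact permutation test the lowest adjusted p was 0.064, for 1370426_a_at.

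Parvalbumin (Pvalb), abundant in the fastest rodent fibres and scarce in soleus, was faint on all arrays. Control signals were 22.6, 13.3, 23.2 and 19.4 for controls 1 to 4. Short-term muscle gave 59 and 39.3 at 1 week, 37.7 and 44.3 at 2 weeks, 37.3 at 3 weeks and 188 at 4 weeks. Long-term muscle gave 24.6 at 6 weeks (rat 62) and 31.4 at 16 weeks, and the 6-week array of rat 61 and the 22-week array lay at the floor of 9.58. All short-term arrays lay above all others, and that of rat 42 at 4 weeks stood apart. The rise was 1.51 (SE 0.46, adjusted p = 0.018), and long-term muscle was lower than short-term muscle by -1.75 (SE 0.46, adjusted p = 0.0085). The size of that last difference depends on the floor, where 2 of the 4 long-term arrays lay, and ran from -3.46 to -1.16 over other settings, with adjusted p up to 0.032. With no floor on low signals the adjusted p of the rise was 0.21, on the deposited scale 0.067, under quantile normalization 0.058, without a filter 0.056 and without control 2 0.057.

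Cacna1s, the pore of the voltage sensor, fell. Its control signals were 1816, 1723, 1180 and 1766 for controls 1 to 4. Short-term muscle gave 1023 and 1224 at 1 week, 1319 and 803 at 2 weeks, 834 at 3 weeks and 681 at 4 weeks. Long-term muscle gave 1763, 1860, 1641 and 1818 in order of weeks. Control 3 was the 1 control inside the short-term range, and all long-term arrays lay above all short-term ones. The fall was 1.68-fold (log2 change -0.74, SE 0.18, adjusted p = 0.0049), and long-term muscle was 0.89 above short-term muscle (SE 0.18, adjusted p = 0.0017).

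Ryr1, the release channel that the voltage sensor opens, was not called. It read 3728, 3817, 3410 and 3437 in controls 1 to 4. It read 3776 and 4639 at 1 week, 4351 and 3351 at 2 weeks, 3105 at 3 weeks and 2122 at 4 weeks, and 3646 to 5138 in long-term muscle. The 4-week array was the lowest of all 14 and the 22-week array the highest. The change was -0.06 in short-term muscle (95% interval -0.44 to 0.32, adjusted p = 0.82) and 0.24 in long-term muscle (adjusted p = 1).

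**Figure D3:**
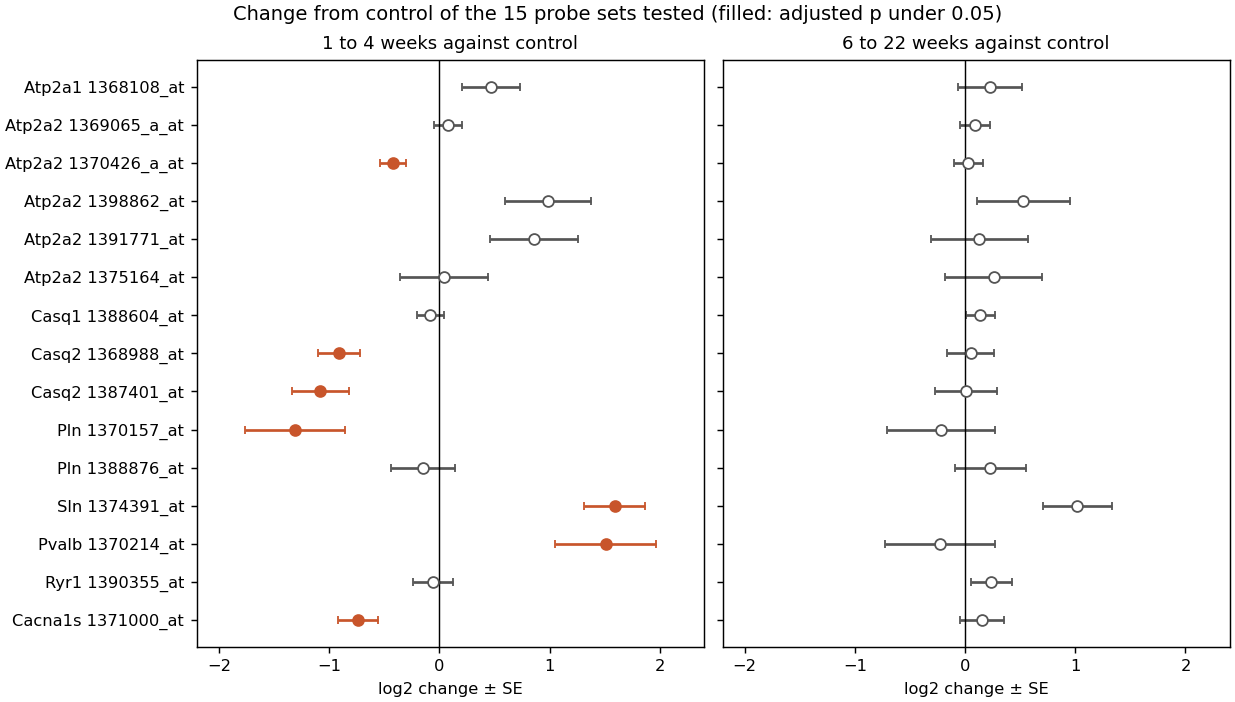
Log2 change ± SE of the 15 tested member probe sets for short-term against control and long-term against control, with filled points where the adjusted p was under 0.05. Short-term changes run from -1.31 (Pln 1370157_at) to 1.59 (Sln), and no long-term point against control is filled.

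Promoters are shown for Casq2 and Cacna1s, which fell, and for Pln, which fell in 1 probe set. They are the 250 bases before the start that RefSeq's promoter sequences (GRCr8) use for each gene, 5′ to 3′ on the strand of the gene. For Casq2 and Cacna1s this is the first base of the annotated gene. For Pln it lies inside the annotated gene, which spans chr20:33166512-33182241. Capitals mark matches, on either strand, to motifs known from muscle genes: the E-box (CANNTG), the MCAT element (CATTCC), the MEF2 site and the CArG box.
Casq2 (chr2:192214306-192214555, + strand): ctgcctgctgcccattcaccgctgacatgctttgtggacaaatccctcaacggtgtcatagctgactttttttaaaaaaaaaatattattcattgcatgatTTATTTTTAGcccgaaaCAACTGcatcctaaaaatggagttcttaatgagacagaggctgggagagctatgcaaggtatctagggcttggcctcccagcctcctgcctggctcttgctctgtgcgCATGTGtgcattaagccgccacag
Cacna1s (chr13:50045418-50045667, + strand): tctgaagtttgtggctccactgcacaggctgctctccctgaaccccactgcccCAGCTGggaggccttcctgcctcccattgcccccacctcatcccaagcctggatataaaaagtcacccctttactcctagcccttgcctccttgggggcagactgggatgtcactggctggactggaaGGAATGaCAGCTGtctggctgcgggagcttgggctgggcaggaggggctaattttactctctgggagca
Pln (chr20:33172244-33172493, + strand): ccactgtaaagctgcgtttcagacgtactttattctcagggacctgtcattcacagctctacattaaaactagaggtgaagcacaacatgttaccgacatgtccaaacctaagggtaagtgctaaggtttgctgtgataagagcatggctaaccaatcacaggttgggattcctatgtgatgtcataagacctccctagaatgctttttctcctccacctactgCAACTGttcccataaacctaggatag
Casq2 held 2 E-boxes and 1 MEF2 match, Cacna1s 2 E-boxes and 1 MCAT match read on the other strand, and Pln 1 E-box. Of 33469 promoters of this length 65.5% held an E-box, 12.1% an MCAT match, 2.96% a MEF2 match and 1.5% a CArG box. Promoters were found for 8 of the 9 genes, and the others, Atp2a1, Atp2a2, Casq1, Pvalb and Ryr1, held E-boxes alone. A match is a run of letters, and no binding was measured here.

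Time points with 2 arrays were compared with the 4 controls in a fit with 1 mean per time point. At 1 week, 2 member probe sets were higher and 2 lower, when 19.5% of all probe sets were called, 10.2% higher and 9.31% lower. Casq2 was lower by -1.41 (SE 0.16, adjusted p = 0.00049) and -1.43 (SE 0.32, adjusted p = 0.012) in its probe sets. Sln was higher by 1.91 (SE 0.26, adjusted p = 0.0015) and Pvalb by 1.33 (SE 0.41, adjusted p = 0.046). When each array was left out in turn, the adjusted p ran from 0.028 to 0.29 for Pvalb and from 0.0016 to 0.098 for the second Casq2 probe set. At 2 weeks, 2 were higher and 2 lower, when 33.4% of all probe sets were called, 16.6% higher and 16.8% lower. Sln was higher by 1.68 (SE 0.26, adjusted p = 0.0014), and Casq2 was lower by -0.53 (SE 0.16, adjusted p = 0.025) and -1.01 (SE 0.32, adjusted p = 0.034). Without the 2-week array of rat 27 the Casq2 values were -0.37 (adjusted p = 0.21) and -0.34 (adjusted p = 0.44), and without that of rat 25 the second was -1.66. The calls were also lost under 3 and 5 other settings, with adjusted p up to 0.066 and 0.1, and without control 3 or control 4 (adjusted p from 0.052 to 0.074), the second also without control 2 (adjusted p = 0.063). The Atp2a2 probe set 1391771_at was higher by 1.45 (SE 0.47, adjusted p = 0.037, from 0.014 to 0.14 with each array left out). Its call was lost under 5 of 11 other settings, with adjusted p up to 0.13. Cacna1s was not called at either time, with -0.51 at 1 week (adjusted p = 0.13) and -0.63 at 2 weeks (adjusted p = 0.05). Under other settings it was called lower at 2 weeks in 5 of 12 (adjusted p down to 0.0054). At 1 week it was called in 1 of 12, under a common median (adjusted p = 0.021). These comparisons use the same controls, and whether 1 and 2 weeks differ from each other was not tested.

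Over the 10 tenotomized arrays a slope on log2 of the week was fitted, and 3 member probe sets were called, all higher, when 12.9% of all probe sets were called, 6.1% higher and 6.84% lower. Casq2 rose with time by 0.35 per doubling of the weeks (SE 0.06, adjusted p = 0.011) and by 0.34 in the second probe set (SE 0.10, adjusted p = 0.047). Pln rose by 0.36 in probe set 1370157_at (SE 0.11, adjusted p = 0.045), while 1388876_at, with 0.18 (SE 0.07, adjusted p = 0.12), was not called. With each array left out the adjusted p ran from 0.0048 to 0.065 for the brighter Casq2 probe set, from 0.035 to 0.14 for the second and from 0.041 to 0.15 for Pln 1370157_at. In that order, the calls were lost in 1, 8 and 9 of 14 runs. The slopes of Sln (-0.24, adjusted p = 0.089), Cacna1s (0.2, adjusted p = 0.15) and Atp2a1 (-0.15, adjusted p = 0.11) were not called. Leaving out the 22-week array left 0 of 15 member slopes called higher and 1 lower. Without any 1 of the arrays of rats 12, 13, 27 and 32, the 6-week arrays or the 16-week array, 1 slope was called higher. The shares of all slopes called in these runs are not given.

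At 6 weeks 0 members were called and 0% of all probe sets. In limma 806 probe sets, or 3.96%, had an unadjusted p under 0.05. Sln was among them, with a log2 change of 1.22 (SE 0.26, adjusted p = 1). Rats 61 and 62 allow both muscles of 1 animal to be compared. The tenotomized muscle exceeded the control muscle in Sln by 0.69 in rat 61 and 1.4 in rat 62. Pln was 0.55 and 0.48 higher in the tenotomized muscle. Casq2 differed by -0.05 and -0.02 in its brighter probe set and by -0.26 and 0.7, in opposite directions, in 1387401_at. Cacna1s differed by 0 and 0.04, while Atp2a1 differed by 0.64 and -0.06. With rat as a fixed block on these 4 arrays 0 members were called, and 0 of all 20334 probe sets. A fit to 4 arrays leaves little from which to estimate the spread, so this count says nothing particular to the members.

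Other calcium genes were read from 3 lists. Of 23 genes of the junction and release complex 22 were tested. In short-term muscle 2 were higher and 6 lower than in control, with a median change of -0.28, where 40.1% of all genes were called, 19.5% higher and 20.5% lower, and the median over all genes tested was -0.03. The count of lower genes ran from 5 to 14 over all runs. Here and below these are the main run, other processing choices and runs with 1 array left out. Jph1, which holds the store against the surface membrane, fell from a mean signal of 1295 to 612 (log2 change -1.08, SE 0.24, adjusted p = 0.0033) and was 1235 in long-term muscle. Ryr3, a minor release channel, fell from 335 to 145 (-1.21, SE 0.30, adjusted p = 0.0062) and was 491 in long-term muscle. S100a1, a calcium-binding protein that acts on the release channel, fell from 448 to 224 (-1, SE 0.22, adjusted p = 0.0029) and was 568 in long-term muscle. Jph2, Srl and Tmem38a were also lower.

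Calr, the calcium-binding chaperone calreticulin, rose from 684 to 1301 (0.93, SE 0.18, adjusted p = 0.0013). It was 705 in long-term muscle. Cacng6, a calcium channel subunit, rose from 22.9 to 90.8 (1.99, SE 0.58, adjusted p = 0.014). Without control 1 or control 3 Cacng6 was not called (adjusted p = 0.06 and 0.052). From short-term to long-term muscle 9 genes of this list were higher and 1 lower, with a median of 0.33 beside 0.02 over all genes tested, where 38.7% of all genes were called, 19.6% higher and 19.1% lower. Over all runs 5 to 16 were higher and 1 to 3 lower. Ryr3 was 1.76 higher (adjusted p = 6e-04), S100a1 1.35 higher (adjusted p = 0.00046), Jph1 1.01 higher (adjusted p = 0.0053) and Calr lower by -0.88 (adjusted p = 0.002).

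**Figure D4:**
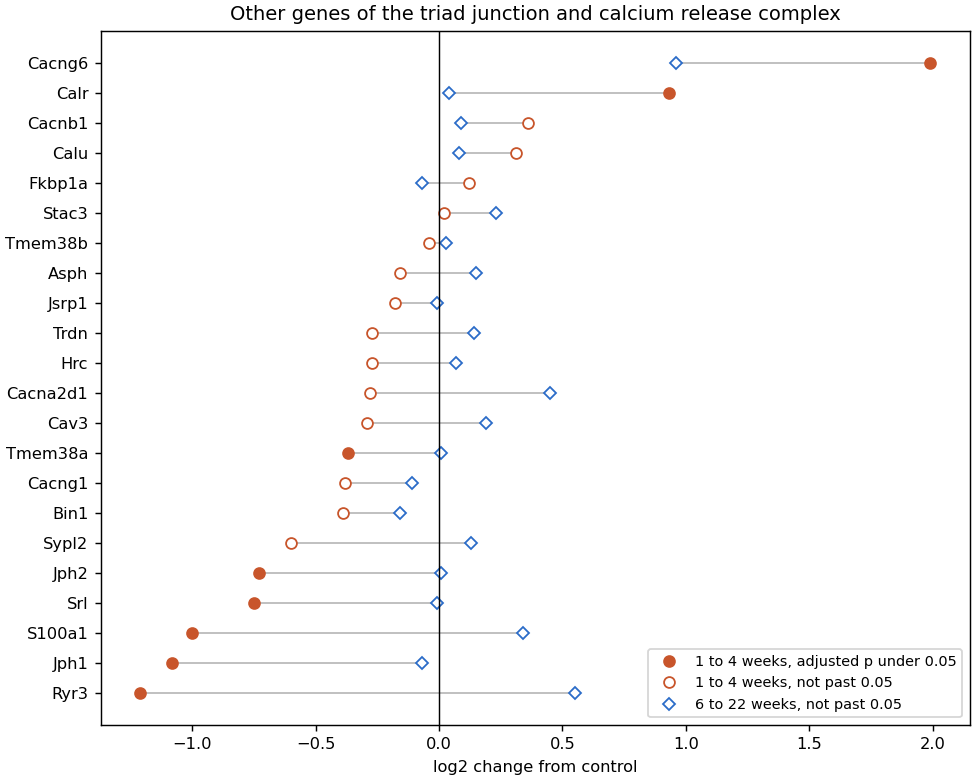
Log2 change against control of the 22 tested genes of the junction and release complex, with circles for short-term muscle, filled where the adjusted p was under 0.05, and diamonds for long-term muscle. Ryr3, Jph1 and S100a1 lie at -1.21, -1.08 and -1 in short-term muscle, and Cacng6 and Calr at 1.99 and 0.93.

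Of 22 genes of calcium signalling 20 were tested, and 3 were higher and 5 lower in short-term muscle, with a median of -0.21 beside -0.03 over all genes tested. Of all genes 40.1% were called, 19.5% higher and 20.5% lower. The count of lower genes ran from 3 to 11 and that of higher genes from 1 to 6 over all runs. Ppp3cc, a catalytic subunit of the phosphatase calcineurin, fell from 276 to 131 (-1.07, adjusted p = 0.00038). Rcan2, a regulator of calcineurin, fell from 2072 to 998 (-1.05, adjusted p = 0.0013), and Mef2d, a transcription factor, from 611 to 367 (-0.73, adjusted p = 0.00069). Camk2b and Ppp3ca were also lower. Capn1, a calcium-activated protease, rose from 94.9 to 263 (1.47, adjusted p = 0.00057). The kinase subunit Camk2g (0.98, adjusted p = 0.049) and the calmodulin gene Calm2 (0.50, adjusted p = 0.0099) were higher by the test. The call of Camk2g was lost under 8 of 12 other settings (adjusted p up to 0.13) and without 11 of the 14 arrays when each was left out in turn (adjusted p up to 0.17). Calm2 was not called under 2 of 12, the deposited scale (adjusted p = 0.37) and a common median (adjusted p = 0.33). From short-term to long-term muscle 9 of the list were higher and 2 lower, where 38.7% of all genes were called. Over all runs 4 to 11 were higher and 2 to 4 lower. Rcan2 was higher (1.28, adjusted p = 4e-04) and Capn1 lower (-1.03, adjusted p = 0.0064). Long-term muscle read 262 for Ppp3cc, 2422 for Rcan2, 603 for Mef2d and 129 for Capn1.

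Of 19 genes of store entry, surface pumps and inositol trisphosphate channels 15 were tested. The store-operated channel gene Orai2 was the 1 called, higher at 70.1 against 29.2 in control (1.27, SE 0.30, adjusted p = 0.0047) and 27.4 in long-term muscle, and 0 were lower. The median change of this list was 0.02. Of all genes 40.1% were called, 19.5% higher and 20.5% lower. Over all runs 1 to 3 of the list were higher and 0 to 3 lower. From short-term to long-term muscle 2 were higher and 3 lower, where 38.7% of all genes were called, 19.6% higher and 19.1% lower. These counts ran from 1 to 5 and from 1 to 3 over all runs. Against control, 0 genes of any of the 3 lists were called in long-term muscle, where 0% of all genes were.

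The genes whose log2 signal followed each member most closely over the 14 arrays are given as a description, since the arrays share groups and labelling. Casq2 was nearest to Trim72 (r = 0.974), Srl (0.972) and Ola1 (0.964). Cacna1s was nearest to Chpt1 (0.967), Ilrun (0.964) and Eif2b4 (0.963), and Ryr1 to Stac3 (0.955), Pde4dip (0.927) and Alpk3 (0.923). Srl and Stac3 encode proteins of the calcium store and of the junction. Atp2a2 was nearest to Ttn (0.976), Actn2 (0.972) and Cryab (0.969), bright muscle genes, and Casq1 to Atp5f1b (0.946), Ndufa1 (0.939) and Cox6c (0.934), which encode mitochondrial proteins. Scaling added the same log2 shift to all genes of an array, from -0.42 (control array of rat 61) to 0.5 (array of rat 27). The brightest Atp2a2 probe set read 7141 and 10019 on these arrays, and 10029 on the 22-week array, where the shift was 0.05. The part of the shifts in the correlations between bright genes was not tested. Atp2a1 was nearest to Casz1 (0.916), Tpm1 (0.888) and the fast troponin C gene Tnnc2 (0.876). Sln was nearest to Mybph (0.916), Trim24 (0.907) and Ing1 (0.899), Pln to Cadps2 (0.907), Fbxo17 (0.904) and Fam107a (0.9), and Pvalb to Sh3tc1 (0.939), Pxk (0.926) and Grk6 (0.926).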

How the data were processed

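Signals of 31099 probe sets on 14 arrays were analysed. The authors deposited linear intensity values made with MAS5, per the submitters' processing notes; scaling target, version and detection calls are not given in the sources used here. The 57 manufacturer controls were left out. Signals were taken to log2, and each array was first shifted to a common median. On that scale probe sets above the pooled 40th percentile (22) on at least 4 arrays were kept. Each array was then shifted so that the median deviation of its tested probe sets from their means was 0. After that, values below the pooled 25th percentile (9.58) were raised to it. Array medians had spanned 0.73. limma 3.58.1 (R 4.3.3, intensity trend) fitted 1 mean per group or time point. The number of arrays limits the precision. In the group fit, p-values rest on the spread between arrays of a group, which mixes rats with weeks since tenotomy. The main fit treated the control and long-term arrays of rats 61 and 62 as independent.

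The brightest probe set stood for a gene. Members, lists and rules were chosen with earlier results of these data known. Of each calcium list up to 3 called genes per direction were named by size, other called genes by symbol. Tested on simulated data for short-term against control (20334 probe sets, 200 changed by a log2 of 1), the fit recovered 50% of changes with 8 false calls. The simulated noise was independent between arrays and few probe sets changed, while 36.4% were called in the data. The recovery and the false calls of the real comparison are therefore not measured by it. Same-numbered muscles of rats 61 and 62 come from the same animals. Their deviations from group means correlated at 0.41 and 0.12, and rat entered as a random block in an alternative. Other alternatives changed the scaling, floor, filter, variance model and probe set, and left out each array.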

Additional observations from a re-analysis of the deposited data

Results flagged for a closer look

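In 5 of 46 groups of 4 to 6 arrays tested, 1 array stood apart by Dixon's criterion, where chance gives about 1 in 20 for normal values. The groups share arrays and genes, so they are not independent and the count was not tested against that share. Control 2 had a log2 signal of 9.86 in Atp2a2 probe set 1398862_at, against 8.14 to 8.23 in the other controls. The 22-week array had 12.56 in Casq1, against 12.26 to 12.28. Control 3 had 3.91 in Pln probe set 1384689_at, where the other controls lay at the floor of 3.26, and 10.2 in Cacna1s, against 10.75 to 10.83. In that Pln probe set any reading above the floor would have stood apart. The 4-week array of rat 42 had 7.56 in Pvalb, against 5.22 to 5.88 in the other short-term arrays.

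Short-term and long-term muscle differed in the test of the difference itself for 5 member probe sets, or 33.3%, beside 34.2% of all probe sets. Long-term minus short-term was 0.44 for Atp2a2 probe set 1370426_a_at, 0.95 and 1.08 for the probe sets of Casq2, -1.75 for Pvalb and 0.89 for Cacna1s. Under quantile normalization the value of that Atp2a2 probe set was 0.21 and it was not called (adjusted p = 0.12 in limma).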

How the results depend on the processing

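Sln, Casq2 (both probe sets) and Cacna1s kept their short-term calls under every alternative run that tested them, and Casq2, Cacna1s and Pvalb their difference between long-term and short-term muscle. The second Casq2 probe set was not tested with 1 probe set per gene, nor Pvalb with the filter at the 60th percentile. Of 2674 single member values under alternatives 81 lost and 65 gained a call, and 1 reversed: Casq1 at 2 weeks was -0.42 on the deposited scale (adjusted p = 0.045). Only values called in the main run could lose a call, and most were not called, so 81 is not to be read as a share of 2674. The median tested probe set moved by -0.28 on the deposited scale and -0.31 under a common median in short-term muscle, and the share of calls that were higher went from 51.9% to 29% and 25.5%. Between long-term and short-term muscle that share went from 48% to 67% and 77.2%.

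Counts of member probe sets moved as follows, with the share of all probe sets called in the same run and comparison in brackets. On the deposited scale 1 was higher in short-term muscle (33.4%) and 7 in long-term against short-term muscle (29.7%). At 1 week 1 was higher (17%), at 2 weeks 1 was higher and 6 lower (41%), and 5 slopes were higher (11.4%). Of all calls on that scale 16.3% were higher at 2 weeks and 74.1% among the slopes. Under a common median 9 were higher in long-term against short-term muscle (46.9%). At 1 week 1 was higher and 4 lower (29.2%), at 2 weeks 1 higher and 5 lower (42.3%), and 7 slopes were higher (27.7%). Of all calls under a common median 23% were higher at 1 week, 23.6% at 2 weeks and 80.9% among the slopes. Under quantile normalization 0 were lower at 2 weeks (31.3%) and 2 slopes were lower (8.43%). Under a common trimmed mean 1 was lower at 2 weeks (32.9%) and 1 slope was higher (12.5%). With no floor 1 was higher in short-term muscle (35.2%) and 1 at 1 week (18.1%). With a floor at the 40th percentile 1 slope was higher (9.65%). With no filter 1 was higher in short-term muscle (21.8%) and 1 slope was higher (2.39%). At 1 week (9.11%) and at 2 weeks (18.4%) 1 was higher and 1 lower without a filter. With the filter at the 60th percentile 0 were lower in long-term against short-term muscle (38.6%) and 1 was higher at 1 week (23.1%). With that filter 0 were lower at 2 weeks (37.9%) and 1 slope was higher (14.4%). With no intensity trend 1 was higher and 0 lower at 2 weeks (30.6%), and 1 slope was higher (10.2%). With 1 probe set per gene 3 were lower in short-term muscle (42%) and 2 higher in long-term against short-term muscle (40.7%). In that run 1 was lower at 1 week (22.4%) and 1 higher at 2 weeks (37.2%). With Casq2 probe set 1387401_at, Casq1 minus Casq2 differed by 1 and -0.87, each with an adjusted p of 0.13 in the exact permutation test. The causes were not tested. Over all probe sets, 2632 slopes were called, against 741 with no filter, 5624 under a common median and 1713 under quantile normalization.

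Leaving out each array in turn gave 2 to 4 member probe sets higher and 4 to 5 lower in short-term muscle, with 4 higher without rat 32 or control 2. It gave 4 to 5 higher and 1 lower in long-term against short-term muscle. At 1 week 1 to 4 were higher and 1 to 3 lower, and at 2 weeks 1 to 3 higher and 0 to 5 lower. At 6 weeks 0 to 1 were higher, and 0 to 4 slopes were higher and 0 to 1 lower. The shares of all probe sets called in these runs are not given, so these counts are not a result about the members. Casq1 minus Casq2 ran from 0.72 to 0.92 in short-term muscle and from -0.81 to -0.62 between long-term and short-term muscle. The adjusted p in the exact permutation test was up to 0.071, and each call was lost in 9 of 14 runs. That test has fewer arrangements only where the array left out belongs to a group compared. With rat as a replicate block, which pairs the muscles of rats 61 and 62, Pln probe set 1370157_at was 1.23 higher in long-term than in short-term muscle (adjusted p = 0.039), Cacna1s passed the threshold at 2 weeks (-0.63, adjusted p = 0.05 after rounding), and no other call of a member changed. Signals near the floor, as for Pvalb, carry little information on fold.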
